A study of Rattus norvegicus with 9 samples.

Results

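Mitochondrial ribosomal protein genes were taken as all rows of the expression table whose symbol begins with Mrpl (large subunit) or Mrps (small subunit) followed by a digit. There are 76 of them among 17588 genes, 46 for the large subunit and 30 for the small subunit. Messenger RNA was sequenced from rat primary chondrocytes of wild-type genotype in 9 libraries. The control group (3 libraries) was in routine culture without interleukin-1β (IL-1β), an inflammatory cytokine. The IL-1β group (3 libraries) was given the cytokine in routine culture. The co-culture group (3 libraries) received IL-1β and afterwards shared medium with dermal fibroblasts, which sat in the upper chamber of a transwell above the chondrocytes. The labels give neither age, sex and strain of the rats nor the dose of IL-1β and the time of exposure, and nothing says that the 3 libraries of a group came from separate animals or cultures. The p-values therefore set differences between group means against the scatter of these libraries only, and that scatter may be technical.

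The mitochondrial ribosome is the machine inside mitochondria that translates the few messages of the mitochondrial genome, all of which code for core subunits of the respiratory chain and ATP synthase. Its RNA comes from the mitochondrial genome, but its proteins are encoded in the nucleus, made in the cytosol and imported. They belong to a large subunit, which joins amino acids, and a small subunit, which reads the message. Some have counterparts in bacterial ribosomes and others are found only in mitochondria. In cartilage, chondrocytes live with little oxygen and rely mostly on glycolysis, and mitochondrial function in these cells is much studied in osteoarthritis.

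Levels are given in FPKM, a measure that divides a gene's fragments by the length of its transcript and by the size of the library. FPKM summed to 771058 to 832248 per library, lowest in the control libraries, and the absolute depth is unknown. Libraries of 1 group correlated at 0.994 to 0.995 and those of different groups at 0.961 to 0.990 (Pearson's r over tested genes, log2 scale; genes are not independent replicates). The libraries carried chondrocyte markers, and all 8 of 8 (such as Col2a1 and Acan) were lower with IL-1β, with summed FPKM of 1545 to 1623 (control), 304 to 319 (IL-1β) and 442 to 489 (co-culture). Skeletal muscle markers were also present. All 8 of 8, none of them at 0, were higher with IL-1β, with summed FPKM of 202 to 225, 465 to 478 and 449 to 495. Dermal fibroblast markers summed to 196 to 209, 1169 to 1232 and 609 to 702 FPKM. Of the 5 tested, 4 were higher and 1 lower with IL-1β, 2 were lower with co-culture against IL-1β, and 3 were higher and 1 lower in co-culture against control (Dpt, −0.34 log2, not called without control replicate 2, where limma's adjusted p was 0.0512). Dcn and Lum, which encode matrix proteoglycans, changed by far the most with IL-1β (3.28 and 3.11 log2), and Pi16, Dpp4 and Cd34 were too low to test. Macrophage and endothelial markers summed to at most 24.6 and 13.9 FPKM in any library. Of the erythroid markers, Hbb was at 0 in 8 of 9 libraries. In bulk RNA, fewer cells of a type and less RNA per cell cannot be told apart, and the part of these markers in the results below was not tested.

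The label was checked against the symbols. Mrps36 is listed in RefSeq as Kgd4, a component of the α-ketoglutarate dehydrogenase complex rather than of the ribosome. Mrps18a and Mrps30 carry small-subunit names, but their proteins sit in the large subunit in known structures. All 3 were kept with the small-subunit symbols, as the rule for members reads. Mrpl11 is not analysed here. A further 5 subunits with other symbols (Dap3, Chchd1, Aurkaip1, Ptcd3 and Gadd45gip1) are not members and are given only as companions.

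The members formed a band of moderate and similar levels. Their median over the 9 libraries was 47.1 FPKM for the large subunit and 43.8 FPKM for the small subunit, against 13.3 FPKM for all tested genes. The nuclear subunits of oxidative phosphorylation had a median of 168 FPKM, and the cytosolic ribosomal proteins had medians of 1964 FPKM (large subunit) and 2618 FPKM (small subunit). Of the 76 members, 58 lay between 20 and 100 FPKM, 8 lay above 100 and 5 below 10.

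The highest member was Mrpl33, a short protein with a bacterial counterpart, at 310.0 ± 13.0 FPKM in the control libraries, 366 ± 18.0 with IL-1β and 370.5 ± 26.0 in co-culture (SD, n = 3). Mrpl17 followed at 273 ± 7.67, 266 ± 4.52 and 278 ± 5.89 FPKM, and then Mrpl54 at 163 ± 2.41, 173 ± 6.12 and 174 ± 3.98. In the small subunit Mrps21 was highest, at 154 ± 10.9, 181 ± 8.51 and 168 ± 4.55 FPKM. Mrps16 had 107 ± 6.98, 117 ± 6.64 and 117 ± 6.76 FPKM, and Mrps17 had 81.0 ± 3.71, 85.7 ± 4.15 and 88.4 ± 5.06. The libraries of Mrpl33 did not overlap with those of Mrpl17, and those of Mrps21 did not overlap with those of Mrps16.

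At the bottom of the order, 4 genes had values too low or too uneven to describe as a change. Mrpl30 was at 0 to 0.99 FPKM and Mrps21l at 0 in every library but 1 IL-1β library (0.38), so neither was tested. Mrps28 ranged from 0.49 to 1.51 FPKM and passed the filter (1 FPKM in at least 3 libraries) only through IL-1β and co-culture libraries. Mrpl1 had 2.06, 0 and 7.18 FPKM in the control libraries, 4.34, 1.75 and 2.92 with IL-1β and 2.75, 6.89 and 0 in co-culture. Its groups overlapped entirely, and a 0 in such a table can be a failed estimate. RefSeq names 9 pseudogenes of Mrpl30 and 2 of Mrpl1, with which reads could have been shared. In all, 23 members have a named pseudogene (40 pseudogenes), and their values are uncertain to that extent. Mrpl40, the lowest of the steadily measured members, had a mean of 9.61 ± 0.341 FPKM in control libraries and 2 named pseudogenes.

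**Figure D1:**
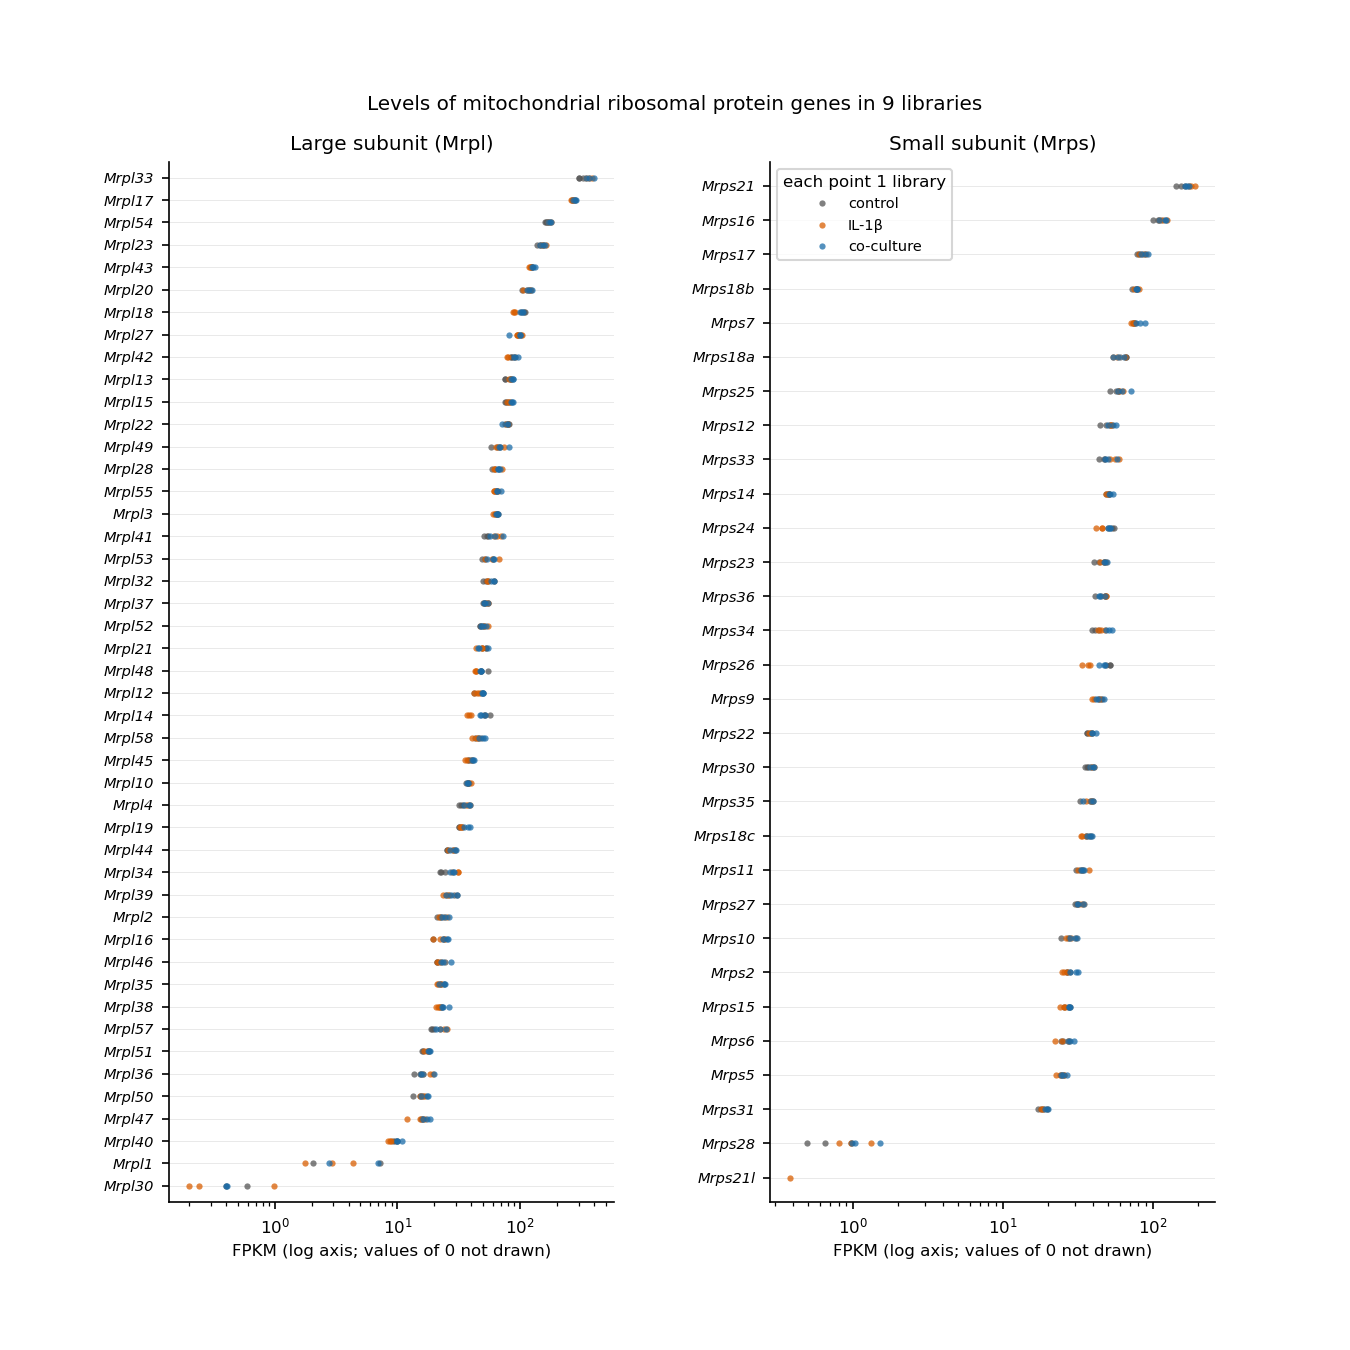
FPKM (log axis) of every member in each of the 9 libraries, ordered by mean level, with the large subunit on the left and the small subunit on the right; each point is 1 library and values of 0 are not drawn. Most members lie between 20 and 100 FPKM with the 3 groups close together, and Mrpl1, Mrpl30, Mrps28 and Mrps21l lie apart at the bottom.

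The first question was how these genes moved when the chondrocytes were given IL-1β. They moved little: in the fit reported here no tested member changed by 0.5 or more on the log2(FPKM + 1) scale (1.41-fold), whereas 1569 of 11732 tested genes did. Under some alternative settings Mrps26 and Mrpl14 reached −0.55 and −0.51 log2, and the low Mrpl1 and Mrps28 reached 1.33 and 0.51. limma with Benjamini-Hochberg adjustment called 11 of 74 members higher and 6 lower, 23.0% of them, at an adjusted p under 0.05. Among all tested genes 46.7% were called, 26.5% higher and 20.2% lower, and among genes at a mean level of 10 FPKM or more 51.3% were called. The median size of change was 0.09 log2 for members and 0.15 for all tested genes. For 70 of 74 members the 95% interval of the change lay within 0.5 log2 of no change; Mrpl1, Mrpl14, Mrps26 and Mrps28 are the exceptions.

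In the large subunit 8 of 45 members were higher and 4 lower, with a median change of 0.03 log2; in the small subunit 3 of 29 were higher and 2 lower, with a median of 0.05. The median of all tested genes was 0.02. Members with a bacterial counterpart were higher in 4 and lower in 2 of 26 (large) and in 1 and 1 of 18 (small), and members found only in mitochondria in 4 and 2 of 19 (large) and in 1 and 1 of 9 (small). Mrps30, which was called higher, and Mrps36 were put in neither class. The split between directions depended on scaling: at a common FPKM sum 6 members were higher and 17 lower, 8 and 11 with median-of-ratios scaling, and 7 and 15 after quantile normalization. All tested genes shifted too, from 3109 higher and 2370 lower to 2249 and 3188, 2749 and 2714, and 2291 and 3332, in that order. No direction is therefore given for the family as a whole.

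**Figure D2:**
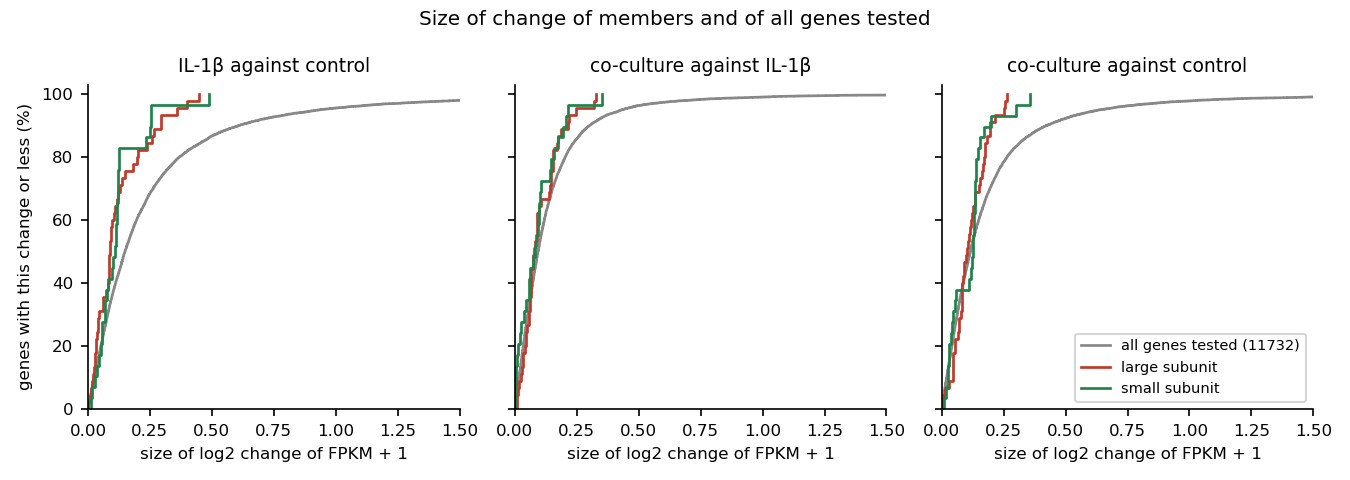
Share of genes (%) whose log2 change of FPKM + 1 is no larger than the value on the x axis, for all tested genes (grey), the large subunit (red) and the small subunit (green), in the 3 comparisons. Both subunits reach 100% before 0.5 log2, while 1569, 432 and 908 of the 11732 tested genes changed by that much or more.

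The members that fell with IL-1β did so by small amounts. The called members described from here on were picked by that call. A lack of overlap between libraries in the same comparison therefore adds little, and the share of all genes without overlap was not counted. Mrps26, a small-subunit protein found only in mitochondria, had 52.1, 52.0 and 48.8 FPKM in the control libraries, 37.8, 36.8 and 33.5 with IL-1β and 46.8, 48.0 and 43.8 in co-culture. The IL-1β libraries lay below all others, and the co-culture libraries lay between them and the controls without overlap. The change with IL-1β was −0.49 log2 (SE 0.052, limma adjusted p = 3.12e-05), the largest fall of any member. With co-culture it rose by 0.35 log2 (adjusted p = 0.00105). Its difference from control in co-culture of −0.14 log2 did not pass the threshold (limma adjusted p = 0.0642). In 4 of the 15 alternative settings it was called lower (limma adjusted p down to 0.0116).

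Mrpl14, which lies at the face of the large subunit that meets the small subunit and binds the assembly factor Malsu1, had 51.8, 50.7 and 56.5 FPKM in the control libraries, 40.1, 38.5 and 37.2 with IL-1β and 47.8, 46.8 and 51.8 in co-culture. The IL-1β libraries were lowest again, while co-culture and control libraries overlapped. The changes were −0.45 log2 with IL-1β (SE 0.051, limma adjusted p = 5.94e-05) and 0.33 with co-culture (adjusted p = 0.00152). Malsu1 itself rose by 0.14 with IL-1β (limma adjusted p = 0.0177) and by 0.13 with co-culture (adjusted p = 0.046).

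Mrpl18, whose bacterial counterpart holds a small ribosomal RNA in place, had 108.03, 110.4 and 102 FPKM in the control libraries, 90.4, 86.9 and 88.5 with IL-1β and 104.8, 100.6 and 104.5 in co-culture. Only the IL-1β libraries stood apart. The changes were −0.27 log2 (SE 0.035, limma adjusted p = 0.000146) and 0.22 log2 (adjusted p = 0.00167). Mrps24, a small-subunit protein with a bacterial counterpart, had 54.9, 53.1 and 50.4 FPKM in the control libraries, 45.5, 41.7 and 45.6 with IL-1β and 51.4, 52.0 and 50.3 in co-culture. It followed the same order, with changes of −0.25 (SE 0.044, limma adjusted p = 0.00103) and 0.21 log2 (adjusted p = 0.00772).

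Mrpl48, found only in mitochondria, had 48.3, 54.4 and 47.8 FPKM in the control libraries, 43.6, 42.8 and 43.8 with IL-1β and 47.9, 47.2 and 48.3 in co-culture. Its IL-1β libraries lay below those of both other groups. The fall of 0.20 log2 passed the test (limma adjusted p = 0.00478), but the difference of 0.14 with co-culture did not (adjusted p = 0.0584). That difference did pass in 2 of the 15 alternative settings. Mrpl40 had 9.26, 9.94 and 9.64 FPKM in the control libraries, 8.37, 8.78 and 8.81 with IL-1β and 10.9, 9.88 and 9.90 in co-culture. It fell by 0.14 log2 with IL-1β at a limma adjusted p of 0.0489, a call that ended when any 1 of the 6 libraries was left out (adjusted p of 0.0513 to 0.144), and rose by 0.22 with co-culture (adjusted p = 0.0132), a call that held under all 15 alternative settings.

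The promoters of Mrps26, Mrpl18 and Mrpl48 are shown because these members had the 3 largest falls with IL-1β among those with a single start in RefSeq's promoter table for the rat genome GRCr8. Each sequence is the 250 bases before the annotated start, 5′ to 3′ on the gene's strand, with capitals marking matches to short motifs listed further on. They lie at chr3:138222074-138222323 (plus strand), chr1:50384702-50384951 (plus strand) and chr1:164351377-164351626 (minus strand).
Mrps26: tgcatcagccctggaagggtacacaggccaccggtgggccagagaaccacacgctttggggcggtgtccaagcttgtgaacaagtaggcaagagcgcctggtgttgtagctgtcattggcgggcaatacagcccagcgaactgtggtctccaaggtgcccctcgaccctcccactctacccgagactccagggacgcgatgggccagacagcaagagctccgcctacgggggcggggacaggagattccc
Mrpl18: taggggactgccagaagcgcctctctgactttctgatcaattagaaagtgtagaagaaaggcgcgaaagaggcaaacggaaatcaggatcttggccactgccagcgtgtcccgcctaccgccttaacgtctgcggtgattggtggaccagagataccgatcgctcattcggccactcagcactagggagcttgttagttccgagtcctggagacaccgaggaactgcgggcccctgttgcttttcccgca
Mrpl48: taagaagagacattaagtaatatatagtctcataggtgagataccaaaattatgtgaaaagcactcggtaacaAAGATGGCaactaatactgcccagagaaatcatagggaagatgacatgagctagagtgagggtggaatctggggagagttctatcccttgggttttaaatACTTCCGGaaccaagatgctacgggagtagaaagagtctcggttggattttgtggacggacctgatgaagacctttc
In these 250 bases Mrps26 and Mrpl18 held none of the motifs, and Mrpl48 held an ETS core and a YY1 core. Mrps26 held an ETS core in the 50 bases after its start, and Mrpl18 held none of the motifs there. Of the other falls, Mrpl14 has 2 listed starts, neither with a motif in its window, Mrpl40 has 1 start, also without a motif, and Mrps24 has no entry.

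Of the 11 members that rose with IL-1β, Mrpl34 is described first. Mrpl34, a short large-subunit protein with a bacterial counterpart, had 24.6, 22.7 and 22.3 FPKM in the control libraries, 27.6, 31.2 and 31.4 with IL-1β and 28.7, 28.4 and 27 in co-culture. The control libraries were lowest, and IL-1β and co-culture libraries overlapped. The change with IL-1β was 0.36 log2 (SE 0.056, limma adjusted p = 0.000508), the largest rise of any member called. Co-culture against IL-1β gave −0.10 log2 with a 95% interval of −0.22 to 0.03 (limma adjusted p = 0.255), and co-culture was 0.26 above control (adjusted p = 0.00537).

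Its promoter, at chr16:18186197-18186446 of GRCr8 on the plus strand, is shown because it holds 2 copies of the ZNF143 core (capitals), a motif found at many promoters of housekeeping genes.
Mrpl34: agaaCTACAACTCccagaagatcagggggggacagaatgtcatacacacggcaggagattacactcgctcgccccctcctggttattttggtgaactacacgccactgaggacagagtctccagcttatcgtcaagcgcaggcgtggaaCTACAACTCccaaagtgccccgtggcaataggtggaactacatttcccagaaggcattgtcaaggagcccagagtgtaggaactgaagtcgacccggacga
The copies begin 246 and 101 bases before the start.

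Mrpl33, the most abundant member, had 305, 300.2 and 325 FPKM in the control libraries, 383, 347 and 368 with IL-1β and 348, 365 and 399 in co-culture. The controls lay below every other library. It rose by 0.24 log2 with IL-1β (limma adjusted p = 0.00501) and stood 0.25 above control in co-culture (adjusted p = 0.0053). Mrpl41, found only in mitochondria, had 51.0, 55.2 and 53.5 FPKM in the control libraries, 70.6, 65.1 and 61.5 with IL-1β and 72.3, 62.7 and 56.7 in co-culture. Both treated groups lay above the controls, and the co-culture libraries were the most spread. The rise with IL-1β was 0.30 log2 (SE 0.080, limma adjusted p = 0.0127).

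Mrpl57, also found only in mitochondria, had 19.9, 18.7 and 19.3 FPKM in the control libraries, 24.2, 22.1 and 25.4 with IL-1β and 25.1, 22.3 and 20.5 in co-culture. The controls were again lowest, and the rise with IL-1β was 0.29 log2 (SE 0.071, limma adjusted p = 0.00704). Among small-subunit members Mrps33 rose by 0.26 log2 (limma adjusted p = 0.0113), from 47.8, 47.3 and 44.0 FPKM to 55.5, 52.1 and 59.2. Mrps21 rose by 0.23 log2 (limma adjusted p = 0.00441), from 143, 165 and 154 FPKM to 190.0, 179 and 173. In neither did control and IL-1β libraries overlap.

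The other 5 rises were smaller or nearer the threshold: Mrpl36 (0.26 log2), Mrpl4 (0.18), Mrpl52 (0.13), Mrps30 (0.12) and Mrpl54 (0.09). The calls of Mrpl36 and Mrpl54 ended on leaving out any of 5 libraries, taken singly (limma adjusted p up to 0.161 and 0.138), and that of Mrpl52 for any of 3 (up to 0.127). The call of Mrpl4 ended without IL-1β replicate 1 or control replicate 3 (limma adjusted p = 0.0512 and 0.0506), and that of Mrps30 without IL-1β replicate 3 or control replicate 3 (0.0612 and 0.0618). The 6 rises described before them held under all 15 alternative settings. Of the 6 falls, 5 held under all 15, Mrpl40 being the exception. Without IL-1β replicate 1 the count of rises was 7 instead of 11, and that of all tested genes 2789 instead of 3109.

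Of the members chosen for a known role, Mrpl12, Mrpl3, Mrps12 and Mrpl58 gave no call in any comparison in the fit reported here. Some of the 15 alternative settings did call them. Mrpl3 was called lower with IL-1β in 4 (limma adjusted p down to 0.00426). Mrps12 was called higher in 3 against control and in 2 with IL-1β. With co-culture against IL-1β, Mrpl58 was called higher in 3 and Mrpl12 in 1. Mrpl12 was also called lower with IL-1β in 1. Mrpl12, which forms the stalk that recruits translation factors, had 46.7 ± 4.20 FPKM in the control libraries, 44.6 ± 2.32 with IL-1β and 49.7 ± 0.737 in co-culture. Mrpl3, near the site where peptide bonds form, had 65.1 ± 0.966, 61.9 ± 1.23 and 64.9 ± 0.944 FPKM. Mrps12, part of the decoding site, had 48.2 ± 3.53, 52.5 ± 0.733 and 53.5 ± 3.44 FPKM. Mrpl58, a peptidyl-tRNA hydrolase that rescues stalled ribosomes, had 45.6 ± 2.71, 43.2 ± 2.60 and 49.2 ± 2.95 FPKM.

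These 4 genes differed between groups by 0.18 log2 or less in any comparison, with limma adjusted p-values from 0.054 to 0.902. The related proteins Mrps18a (64.2 ± 3.42, 59.0 ± 5.34 and 59.1 ± 5.03 FPKM) and Mrps18b (75.9 ± 3.10, 77.8 ± 3.10 and 77.9 ± 0.852) gave no call either. Their relative Mrps18c (37.1 ± 1.41, 34.3 ± 1.27 and 37.9 ± 1.46) gave none with IL-1β (limma adjusted p = 0.0572) but was called higher with co-culture against IL-1β (0.14 log2, adjusted p = 0.041). Of the 15 alternative settings, 5 called Mrps18c lower with IL-1β and 1 called Mrps18a lower. Mrps36, the Kgd4 gene, had 44.6 ± 3.38, 48.3 ± 0.597 and 45.1 ± 2.13 FPKM and no call in the fit reported here, though 1 alternative setting called it higher with IL-1β.

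**Figure D3:**
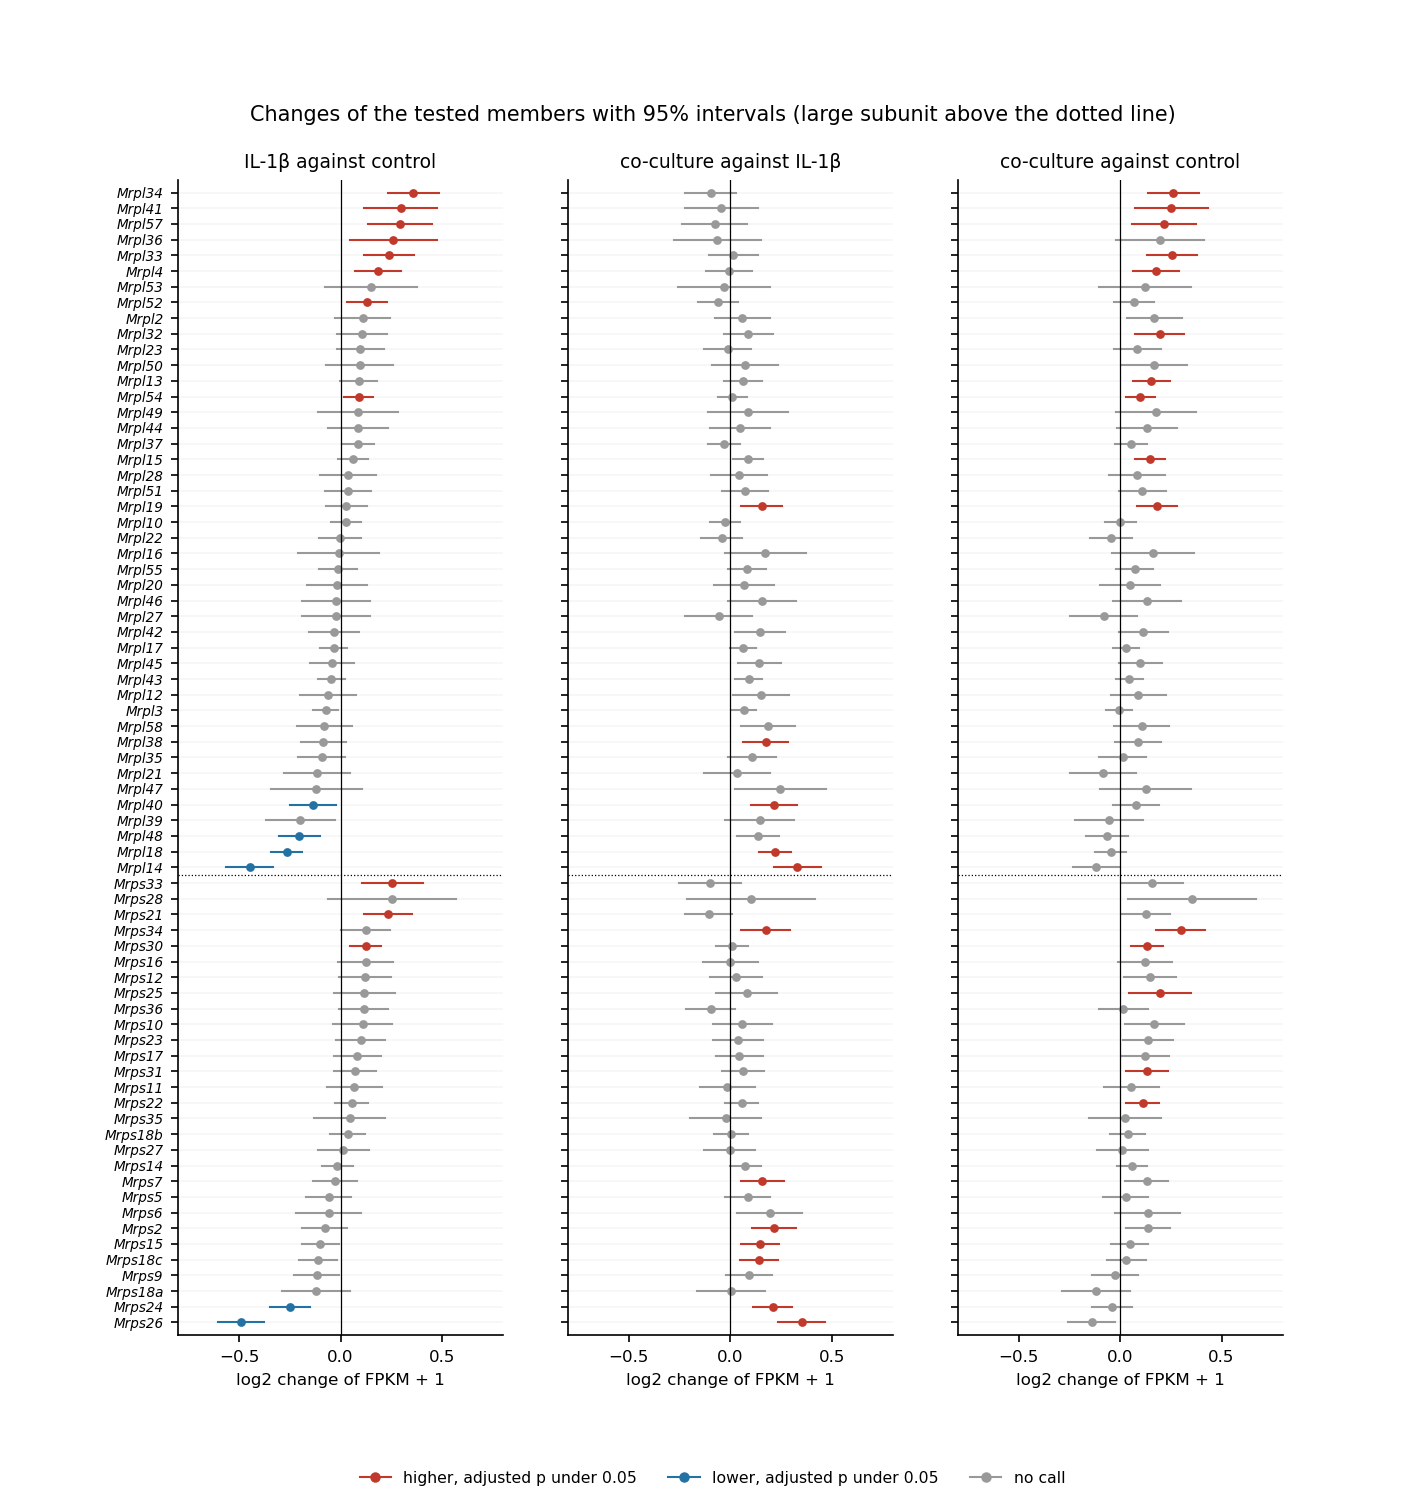
Change on the log2(FPKM + 1) scale of each tested member but Mrpl1 in the 3 comparisons, with the 95% interval; large-subunit members are above the dotted line, and red and blue mark limma calls. Mrps26 and Mrpl14 are lowest with IL-1β (−0.49 and −0.45) and highest with co-culture against IL-1β (0.35 and 0.33).

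The second question was what changed when IL-1β-treated chondrocytes shared their medium with dermal fibroblasts. All calls among the members were upward: 12 of 74 were higher and 0 lower, 16.2% of them, with limma at an adjusted p under 0.05. At an unadjusted p under 0.05 in limma, 22 members were higher and 0 lower, but all tested genes were not counted at that threshold. Among all tested genes 22.0% were called, 11.9% higher and 10.1% lower. Genes at a mean level of 10 FPKM or more, where most members lie, were called in 28.2%, with 17.2% higher and 11% lower. In the large subunit 5 of 45 members were higher and in the small subunit 7 of 29, with median changes of 0.07 and 0.06 log2 beside 0.02 for all tested genes. No member changed by 0.5 log2 in the fit reported here, against 432 of 11732 genes. The direction was upward under each scaling, with 14, 6 and 12 members higher and 0 lower at a common FPKM sum, with median-of-ratios scaling and after quantile normalization. All tested genes then numbered 1275 higher and 1089 lower, 1124 and 1319, and 1453 and 1157.

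Of these 12, Mrps26, Mrpl14, Mrpl18, Mrps24 and Mrpl40 are those that were lower with IL-1β. The IL-1β libraries enter both comparisons, so a high or low value in them moves both. The other 7 were not called with IL-1β. Mrps2, with a bacterial counterpart, had 26.7, 28.1 and 26.8 FPKM in the control libraries, 25.7, 26.7 and 24.7 with IL-1β and 31.4, 30.8 and 27.9 in co-culture. Its co-culture libraries lay above all IL-1β libraries (0.22 log2, limma adjusted p = 0.0118) but overlapped with control.

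Mrps34, a small-subunit protein found only in mitochondria, had 39.1, 41.2 and 44.0 FPKM in the control libraries, 45.4, 42.8 and 47.5 with IL-1β and 53.5, 48.7 and 51.1 in co-culture. The co-culture libraries were the highest, and control and IL-1β libraries overlapped. Its change against IL-1β was 0.17 log2 (limma adjusted p = 0.0451), and against control 0.30 log2 (SE 0.054, adjusted p = 0.00207). Mrps7, a bacterial-type protein of the small subunit's head, had 74.3, 76.4 and 74.1 FPKM in the control libraries, 74.7, 74.0 and 71.8 with IL-1β and 88.9, 76.5 and 81.4 in co-culture. All co-culture libraries were above the others, the lowest of them barely, and the change against IL-1β was 0.16 log2 (limma adjusted p = 0.0408).

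Mrpl38 (0.17 log2), Mrpl19 (0.15), Mrps15 (0.15) and Mrps18c (0.14) made up the rest. Mrpl19 went from 33.2 ± 0.780 to 37.0 ± 1.99 FPKM and Mrpl38 from 21.3 ± 0.674 to 24.2 ± 1.70. Calls of 6 of the 12 held under all 15 alternative settings: Mrpl14, Mrpl18, Mrpl40, Mrps2, Mrps24 and Mrps26. The other 6 calls each ended on leaving out any of 4 or 5 single libraries, at limma adjusted p-values up to 0.142 for Mrps34, 0.126 for Mrps18c, 0.12 for Mrps7, 0.107 for Mrpl19 and Mrpl38 and 0.105 for Mrps15. Without co-culture replicate 1 or IL-1β replicate 2, 7 members were higher. All tested genes higher then numbered 1381 and 1060, respectively, against 1393 as reported.

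**Figure D4:**
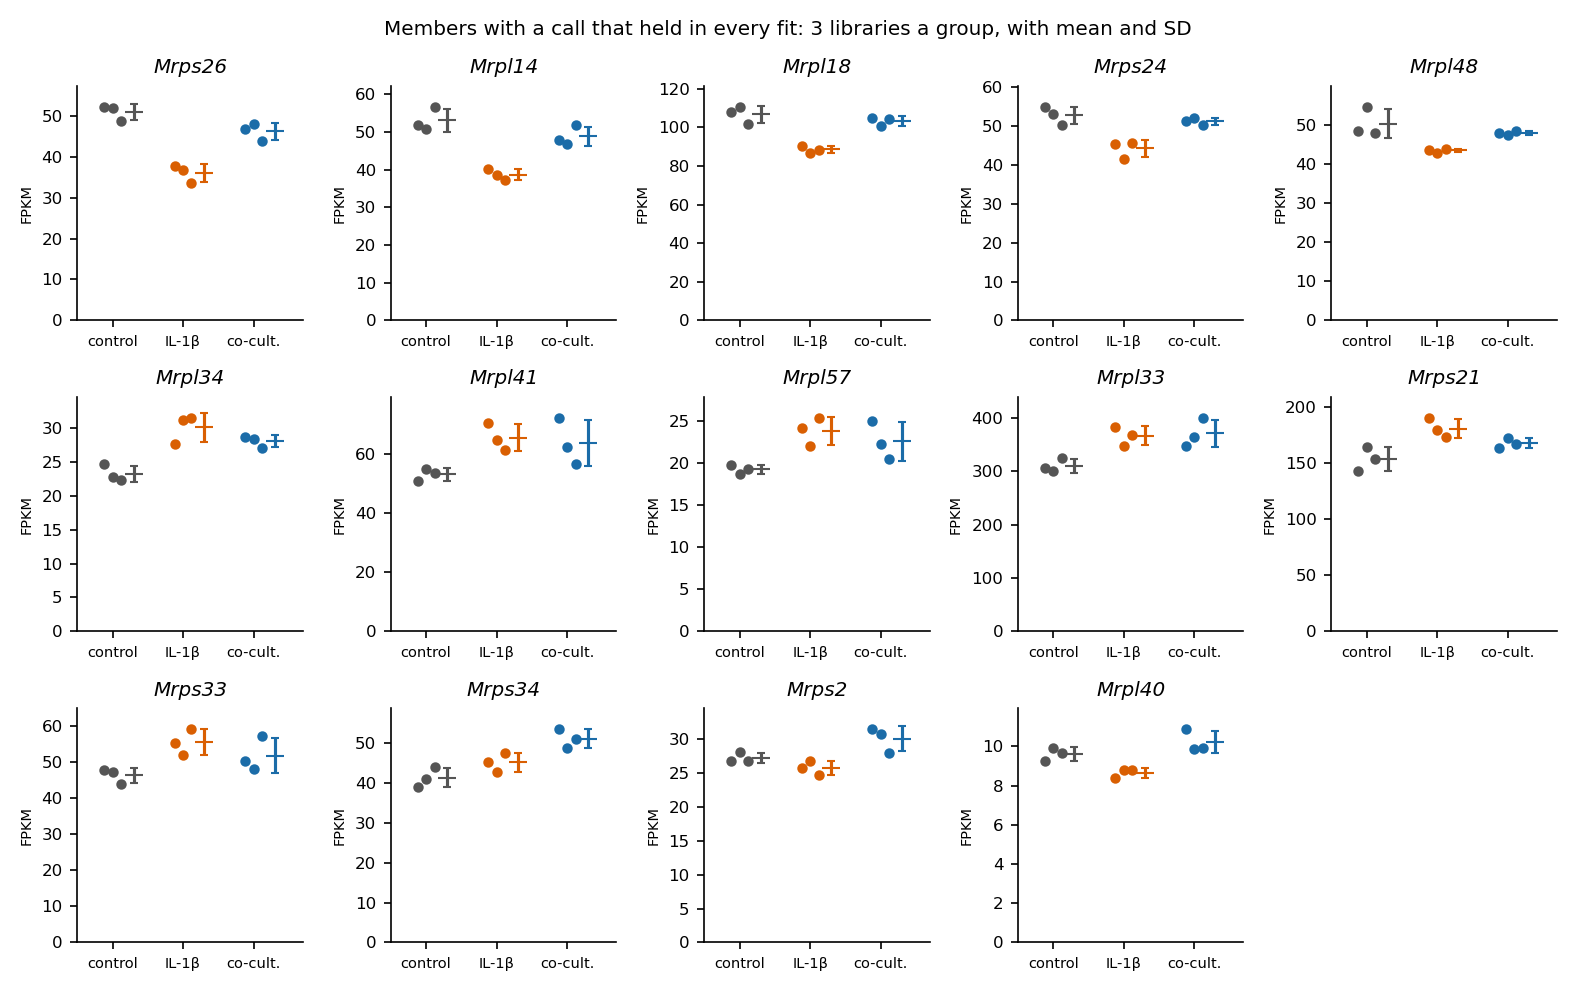
FPKM in each library (points) with mean and SD (bars) for the 14 members that had at least 1 call held under all 15 alternative settings; every y axis starts at 0. In the first row the IL-1β libraries lie below those of both other groups, and in the second row the control libraries lie below the IL-1β libraries. The members were picked by their calls, so these gaps add little to the calls.

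The last comparison set co-culture against control. No group was co-cultured without IL-1β, so differences due to IL-1β and to the fibroblasts cannot be told apart in it. In this fit 15 of 74 members were higher and 0 lower, 20.3% of them, against 33.9% of all tested genes (21.8% higher and 12.2% lower). Genes at a mean level of 10 FPKM or more were called in 39.3%, with 26.3% higher and 13% lower. At an unadjusted p under 0.05 in limma, 26 members were higher and 2 lower, again without a count of all tested genes. The large subunit had 10 of 45 higher and the small subunit 5 of 29, with median changes of 0.10 and 0.12 log2 beside 0.04 for all tested genes. This count was the most dependent on scaling: 3 members were higher and 3 lower at a common FPKM sum, 5 and 2 with median-of-ratios scaling, and 3 and 3 after quantile normalization. All tested genes shifted too, from 2554 higher and 1427 lower to 1541 and 2009, 1844 and 1881, and 1641 and 2076. Calls of 3 members held under all 15 settings, Mrpl33, Mrpl34 and Mrps34. Without co-culture replicate 2, control replicate 1 or control replicate 3, respectively, 7, 9 and 8 members were higher. All tested genes higher then numbered 2077, 2094 and 2093, against 2554 as reported.

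Of the other 12 calls, Mrpl41 (0.25 log2), Mrpl57 (0.22), Mrpl4 (0.18), Mrps30 (0.13) and Mrpl54 (0.10) were also higher with IL-1β, in a comparison that shares the control libraries. Mrpl32 had 52.7, 55.0 and 49.7 FPKM in the control libraries, 61.6, 53.8 and 54.5 with IL-1β and 58.5, 60.9 and 61.1 in co-culture. Control and co-culture libraries did not overlap (0.19 log2, limma adjusted p = 0.0208), while the IL-1β libraries overlapped with both.

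The Mrpl32 promoter, at chr17:55260401-55260650 of GRCr8 on the plus strand, is shown because it holds 3 matches to the NRF1 core, the motif of a regulator of nuclear genes for mitochondria, and 1 to the YY1 core (capitals).
Mrpl32: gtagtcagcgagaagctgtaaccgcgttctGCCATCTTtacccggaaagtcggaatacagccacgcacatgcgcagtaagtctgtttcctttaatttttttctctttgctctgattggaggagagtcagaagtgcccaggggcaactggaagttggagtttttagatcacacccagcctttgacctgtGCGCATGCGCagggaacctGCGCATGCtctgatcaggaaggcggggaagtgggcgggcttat
A pair of the NRF1 matches overlap, as the core was read on both strands.

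Mrpl19, Mrps25, Mrpl13, Mrpl15, Mrps31 and Mrps22 rose against control by 0.18, 0.20, 0.15, 0.15, 0.13 and 0.11 log2. The proteins of Mrps25, Mrps31 and Mrps22 are found only in mitochondria. In each of the 6, control and co-culture libraries did not overlap. This adds little, as the 6 were picked by their call in the same comparison, and the share of all genes without overlap was not counted. Of the 12 calls other than those of Mrpl33, Mrpl34 and Mrps34, Mrpl19 and Mrpl15 kept theirs whichever library was left out, and the other 10 each ended for 3 to 5 single libraries, at limma adjusted p-values up to 0.161.

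Summed over the 46 genes of the large subunit, FPKM came to 2842 ± 26.6 in the control libraries, 2912 ± 87.4 with IL-1β and 3029 ± 18.4 in co-culture. The 30 genes of the small subunit summed to 1396 ± 32.7, 1438 ± 34.5 and 1483 ± 7.96. All 76 summed to 4205 to 4307, 4250 to 4478 and 4496 to 4521 FPKM, so the co-culture libraries lay above all others and control and IL-1β libraries overlapped. As a share of each library's FPKM the order differed. The members made up 0.544 to 0.551% of the control, 0.534 to 0.538% of the IL-1β and 0.554 to 0.558% of the co-culture libraries, with no overlap between groups. The IL-1β group thus lay above control by mean sum and below it by share, while co-culture was highest by both. This order of shares without overlap was not particular to the members. It also held for the lists of mitochondrial content, translation factors and mitochondrial RNA synthesis and processing given below. It did not hold for the nuclear subunits of oxidative phosphorylation or the cytosolic ribosomal proteins. A sum weighs abundant members such as Mrpl33 most. The median FPKM of the large-subunit members was 47.5 to 50.4 in the control, 43.8 to 44.4 in the IL-1β and 47.7 to 50.9 in the co-culture libraries. Medians of the small subunit in control libraries overlapped with those of both other groups.

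**Figure D5:**
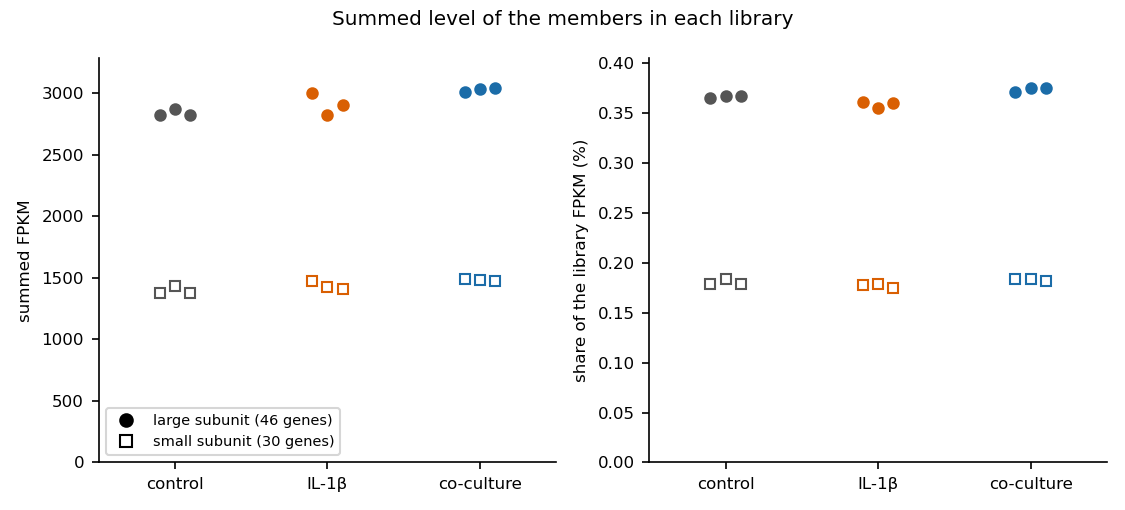
Summed FPKM (left) and share of the library's FPKM in percent (right) of the large subunit (filled circles) and small subunit (open squares), each point being 1 library. Large-subunit sums are 2826 to 2873 in the control libraries, 2827 to 3001 with IL-1β and 3009 to 3044 in co-culture; the shares are lowest in IL-1β libraries for the large subunit.

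Members varied slightly more between libraries of a group than genes in general. Among genes whose mean reached 10 FPKM, the median coefficient of variation of the 71 members was 4.35% in the control libraries, 4.71% with IL-1β and 4.73% in co-culture, against 3.24%, 3.34% and 3.92% for all genes. A missing call for a member does not show that its level was equal between the groups.

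The other genes of the pathway were read from lists of known parts. Their counts stand against 26.5% of all tested genes higher and 20.2% lower with IL-1β, 11.9% and 10.1% with co-culture against IL-1β, and 21.8% and 12.2% against control. Of the 5 ribosomal proteins with other symbols, Dap3, a GTP-binding small-subunit protein, rose with IL-1β by 0.11 log2 (limma adjusted p = 0.0343), and the other 4 gave no call there. Against control Dap3 and Ptcd3 rose by 0.13 and 0.18 (limma adjusted p = 0.0212 and 0.023), calls that each ended on leaving out any of 4 single libraries (up to 0.0733 and 0.081). Of 27 tested factors that assemble the ribosome or modify its RNA, 4 rose and 2 fell with IL-1β, 3 rose and 1 fell with co-culture against IL-1β, and 4 rose against control (14.8%, 11.1% and 14.8% higher). Mterf3, a regulator of mitochondrial transcription and ribosome assembly, fell by 0.29 with IL-1β (limma adjusted p = 0.0011) and rose by 0.18 with co-culture (adjusted p = 0.0342). Dhx30, an RNA helicase needed for assembly, rose by 0.19 with IL-1β (limma adjusted p = 0.00179), and Gtpbp10, an assembly GTPase, rose by 0.20 with co-culture (adjusted p = 0.00473).

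Of 14 tested translation factors, 3 rose and 1 fell with IL-1β, 1 rose with co-culture against IL-1β, and 6 rose against control (21.4%, 7.14% and 42.9% higher). The initiation factor Mtif2 rose by 0.28 log2 with IL-1β (limma adjusted p = 0.000816), as did Mtfmt, which formylates the initiator tRNA (0.28, adjusted p = 0.00233). The elongation factor Tsfm rose by 0.25 with co-culture (limma adjusted p = 0.0135). Of 20 genes that charge mitochondrial tRNAs, 4 rose and 1 fell with IL-1β (20% and 5%), and 4 rose in co-culture against control (20%). With co-culture against IL-1β limma called 0 of the 20, and 1 had an unadjusted p under 0.05. Vars2, for valine, rose by 0.35 with IL-1β (limma adjusted p = 0.00196).

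Of 19 genes for mitochondrial RNA synthesis and processing, 2 rose and 2 fell with IL-1β, 3 rose with co-culture against IL-1β (15.8%) and 4 rose against control (21.1%). Mtpap, the mitochondrial poly(A) polymerase, rose by 0.36 with IL-1β (limma adjusted p = 0.000753), and Tfam, which packages mitochondrial DNA, by 0.16 (adjusted p = 0.0158). The transcripts of the mitochondrial genome itself are not analysed here.

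Among 7 tested regulators of nuclear genes for mitochondria, 3 rose and 3 fell with IL-1β, 1 rose and 1 fell with co-culture against IL-1β, and 2 rose against control. The nuclear receptor Esrra rose by 0.56 log2 with IL-1β (limma adjusted p = 1.12e-06) and fell by 0.21 with co-culture (adjusted p = 0.00315). Nrf1 fell by 0.15 with IL-1β (limma adjusted p = 0.0194), and Gabpb1, a subunit of an ETS factor, fell by 0.18 with IL-1β (adjusted p = 0.00886) and rose by 0.21 with co-culture (adjusted p = 0.0112).

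Several calls of these companions rested on single libraries. With IL-1β, the call of Dap3 ended on leaving out any of 4 single libraries (limma adjusted p up to 0.125), that of Malsu1 without IL-1β replicate 1 or control replicate 2 (0.0675 and 0.0502), that of Nrf1 without IL-1β replicate 2 or control replicate 1 (0.0712 and 0.0767), and that of Tfam without IL-1β replicate 3 or control replicate 2 (0.0621 and 0.059). With co-culture against IL-1β, the calls of Malsu1 and Mterf3 ended for 4 and 3 single libraries (limma adjusted p up to 0.139 and 0.108), and that of Tsfm without co-culture replicate 2 (0.0514). At a common FPKM sum the calls of Dap3, Malsu1 and Tfam with IL-1β also ended.

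Of 76 tested nuclear subunits of oxidative phosphorylation, which work with the products of the mitochondrial ribosome, 25 rose and 1 fell with IL-1β, 6 rose and 1 fell with co-culture against IL-1β, and 31 rose and 1 fell against control. These were 32.9%, 7.89% and 40.8% higher and 1.32% lower each time. The shares of all tested genes were 26.5%, 11.9% and 21.8% higher and 20.2%, 10.1% and 12.2% lower. The median change of these subunits with IL-1β was 0.10 log2, beside 0.04 for the members. Of the cytosolic ribosomal proteins, 18 of 50 (large, 36%) rose and 5 of 32 (small, 15.6%) rose and 1 fell with IL-1β, with medians of 0.07 and 0.05. With co-culture against IL-1β 9 of 50 rose, and limma called 0 of 32 (3 had an unadjusted p under 0.05); against control 29 of 50 (58%) and 10 of 32 (31.2%) rose. Of 15 genes that mark mitochondrial content, 3 rose and 2 fell with IL-1β, 5 rose and 1 fell with co-culture against IL-1β (33.3% and 6.67%), and 8 rose against control (53.3%). No difference between lists was tested.

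Promoters were listed in RefSeq for 61 of the 76 members, as 63 windows of 300 bases from 250 before to 50 after an annotated start. The motifs were read on both strands, and matches to 1 motif may overlap. The YY1 core AAGATGGC was in 15 of 63 member windows (23.8%), in 5.58% of the windows of tested genes and in 3.17% of all windows. Of its matches 4 began before the start and 11 at or after it; its letters include ATG, so a match after the start can be the beginning of a coding sequence. The 15 genes, 8 of the large and 7 of the small subunit, include Mrps7, Mrpl37, Mrpl42, Mrpl48, Mrps18a and Mrps30. Of the 17 members called with IL-1β, Mrpl36, Mrpl48 and Mrps30 are among them.

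The ETS core CCGGAAGT was in 12.7% of member windows and 8.54% of tested windows (3.81% of all), and the NRF1 core GCATGCGC in 7.94% and 5.33% (2.47% of all). The ZNF143 core CTACAACTC, which was added after the sequences had been seen, was in 4 member windows (6.35%), those of Mrpl34, Mrpl42, Mrpl50 and Mrps17, and in 1.34% of tested and 0.618% of all windows. The E-box CACGTG (9.52% of member and 9.36% of tested windows, 6.42% of all), the CRE TGACGTCA (1.59%, 3.22% and 1.83%) and the TATA box TATAAA (12.7%, 6.81% and 14.2%) were the others searched. A match is a description of the letters and not a binding site. The median GC content was 55.7% in member windows, 61.0% in tested and 51.7% in all windows.

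Many members start head to head with another gene. Within 1000 bases, 18 of 61 members (29.5%) had a neighbour that starts on the opposite strand, against 17.8% of tested genes and 11.4% of all genes. Mrpl18 shares such a region with Tcp1, a subunit of the cytosolic chaperonin, with starts 425 bases apart. Tcp1 changed by −0.11 log2 with IL-1β (limma adjusted p = 0.0106) and 0.18 with co-culture (adjusted p = 0.00211), beside −0.27 and 0.22 for Mrpl18. Mrpl40 lies 186 bases from Hira, a histone chaperone gene, which changed by −0.51 (limma adjusted p = 8.53e-05) and 0.52 (adjusted p = 0.000265), beside −0.14 and 0.22 for Mrpl40.

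In 14 pairs both genes were tested. The pair counts stand against 46.7% of all tested genes called with IL-1β and 22.0% with co-culture against IL-1β. With IL-1β both were called in the same direction in 3, those of Mrpl18, Mrpl40 and Mrpl41, only the neighbour was called in 3, those of Mrpl2, Mrpl32 and Mrpl51, and neither in 8. The call of Pnpla7, which pairs with Mrpl41, ended on leaving out any 1 of the 6 libraries (limma adjusted p of 0.0565 to 0.155). The same was true of the call of Mrpl40 itself (0.0513 to 0.144). With co-culture against IL-1β both were called in 2 pairs, only the neighbour in 3, only the member in 2 and neither in 7. Klc4, 528 bases from Mrpl2, changed by 0.58 with IL-1β (limma adjusted p = 1.88e-05) while Mrpl2 gave no call (0.11, adjusted p = 0.168). Ncapd2, 50 bases from Mrpl51, fell by 0.20 (limma adjusted p = 0.00589) beside 0.04 for Mrpl51 (adjusted p = 0.595). Psma2, 210 bases from Mrpl32, rose by 0.10 (limma adjusted p = 0.0295, and up to 0.103 for the 3 libraries whose removal ended the call) beside 0.11 for Mrpl32 (adjusted p = 0.142). The only members that face each other are Mrpl46 and Mrps11, 1 from each subunit, 234 bases apart, and neither was called in any comparison. Whether reads were counted by strand is not given in the sources used here.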

How the data were processed

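Chondrocytes were released from rat cartilage with collagenase II, messenger RNA was enriched by its poly(A) tail, and fragments were reverse transcribed with random primers, per the labels' protocols. Per the file headers the authors deposited FPKM values of 17588 genes, with a column for each of 9 libraries. How reads were aligned, counted and assigned to strands is not given in the sources used here. Build GRCm38 stands in the submitters' processing notes, a mouse build, while the samples are labelled rat; all 76 member identifiers matched rat genes in RefSeq's GRCr8 table. Promoter coordinates are those of GRCr8 and were not matched to the reads.

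Genes with at least 1 FPKM in at least 3 of 9 libraries (11732, including 74 of the 76 members) were tested on log2(FPKM + 1) with limma 3.58.1 in R 4.3.3, with a mean-variance trend, all 9 libraries in 1 fit, two-sided tests and p-values adjusted by Benjamini-Hochberg in each comparison; a call is an adjusted p under 0.05. Because a pseudocount of 1 was added, fold changes of low genes are understated. The fit was tested before use on simulated data in which 200 genes had known changes, far fewer than were called in the real data. Its bar for recovery was set on changes larger than that of any member. It therefore gives no assurance that changes as small as theirs are found. Groups came from the sample titles. No count test was run, because the FPKM table holds no counts.

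The members and lists were chosen with earlier results of these data known. Genes named are, per comparison and subunit, the 5 largest called rises and falls, members called in opposite directions, the 3 highest and lowest by level, untested members and a few with known roles, and of each companion list some of those with the smallest p. The remaining called members, head-to-head neighbours and motif examples were chosen after their values were seen. The alternatives were another pseudocount, other filters, 3 scalings, no trend, only the libraries compared, a replicate block and each library left out. Figures were drawn with matplotlib 3.10.9.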

Additional observations from a re-analysis of the deposited data

How the results depend on the processing

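Each comparison was refitted under 15 alternatives, and no called change of a member, or of the companion and neighbour genes refitted with them, turned its sign. Scaling shifted the median change of all genes by under 0.1 log2 but moved most counts. With IL-1β against control, large-subunit members were higher in 4, 5 and 5 and lower in 10, 6 and 10 at a common FPKM sum, with median-of-ratios scaling and after quantile normalization, against 8 and 4 as reported; small-subunit members were lower in 7, 5 and 5 against 2. Without a trend 5 large-subunit members were higher. With co-culture against IL-1β, large-subunit members were higher in 3 without a filter, 8 at a mean FPKM of at least 5 and 3 with median-of-ratios scaling, against 5; small-subunit members were higher in 4 without a filter, 3 with median-of-ratios scaling and 4 without a trend, against 7. With co-culture against control, large-subunit members were higher in 2, 4 and 2 and lower in 2, 1 and 2 under the 3 scalings, against 10 and 0; small-subunit members were higher in 1 and lower in 1 under each scaling, against 5 and 0, and higher in 3 without a filter, 2 without a trend and 2 with only the 6 libraries compared. Medians of the large subunit at a common FPKM sum were −0.04 with IL-1β and 0.04 in co-culture against control. All tested genes higher with IL-1β numbered 3021 without a trend, against 3109. With co-culture against IL-1β they numbered 1215 without a filter, 1349 at a mean FPKM of at least 5 and 1231 without a trend, against 1393. Against control they numbered 2407 without a filter, 2410 without a trend and 2370 with only the 6 libraries compared, against 2554.

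Leaving out 1 library gave 4 to 8 large-subunit members higher with IL-1β, 3 to 4 lower, 2 to 4 small-subunit members higher and 2 to 4 lower. With co-culture against IL-1β it gave 4 to 7 large-subunit and 3 to 6 small-subunit members higher, and against control 5 to 8 and 2 to 5 higher and 0 to 1 large-subunit members lower. All tested genes then numbered 2695 to 2789 higher and 2086 to 2123 lower with IL-1β. With co-culture against IL-1β 977 to 1381 of them were higher, and against control 2077 to 2375 were higher and 1158 to 1304 lower. The causes of these shifts were not tested. The replicate numbers did not pair the libraries: deviations of same-numbered libraries from their group means correlated at −0.09 to 0.09 (9 pairs), as did those of other pairs (−0.08 to 0.09). With the replicate number as a block, 6 small-subunit members were higher with IL-1β, 4 were higher with co-culture against IL-1β and 1 was lower in co-culture against control. In all, members higher and lower numbered 13 and 6, 9 and 0, and 18 and 1. All tested genes numbered 2946 and 2255, 1194 and 1072, and 2370 and 1311. The absolute depth is unknown, so the error of low values cannot be stated.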
